A study of Solanum lycopersicum with 36 samples.

Results

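The miR162 and miR403 families were followed through small RNA and degradome libraries of tomato leaves under drought, heat and their combination. Members were all sequences whose miRNA name holds miR162 or miR403 followed by a character other than a digit, each sequence counted once, and all cleavage sites listed for such a miRNA. This gave 8 of the 765 distinct miRNA sequences, 6 from miR162 and 2 from miR403, and 2 of the 574 distinct degradome sites, 1 in DCL1 and 1 in AGO2. This rule used names only, but the families were chosen with earlier results of these data known.

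Leaves of wild-type Solanum lycopersicum were sampled from 4 treatments with 3 biological replicates each, giving 12 small RNA and 12 degradome libraries. Seedlings were 24 days old when watering was split. Control plants were irrigated and kept at 26 °C, and heat plants were irrigated and moved to 38 °C. Drought plants had no water for 3 days before the treatment and stayed at 26 °C. Combination plants had no water for 3 days before the treatment and were moved to 38 °C. By the methods of the study, drought and combination plants were also without irrigation during the treatment. The labels give 48 h at either temperature, while the methods of the study give an earlier time for the leaves that were sequenced. All comparisons with control share the same 3 control libraries.

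Plant miRNAs are released from folded precursors by a Dicer-like nuclease, each as a short duplex of a guide and a passenger strand. The guide is loaded into an Argonaute protein and directs the cutting of matching transcripts, while the passenger is usually degraded. DCL1 is the Dicer-like enzyme that releases most plant miRNAs, and AGO2 is an Argonaute known in Arabidopsis for antiviral defence. In Arabidopsis, miR162 directs cutting of DCL1 mRNA and miR403 that of AGO2 mRNA, so both families act on the machinery that makes or uses small RNAs. Degradome sequencing reads the ends left by such cuts.

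The 8 sequences are shown because the strands and the length variants behaved differently. They are written 5′ to 3′ as DNA letters, as deposited, with the seed (bases 2 to 8) in capitals. The guides and the variants that start at the same base were:
sly-miR162: tCGATAAAcctctgcatccag
sly-miR162a_ptc: tCGATAAAcctctgcatccagt
sly-miR162a_lus: tCGATAAAcctctgcatccagaa
sly-miR403-3p: cTAGATTCacgcacaagctcg
The passenger strands, and a sequence from the same arm as the miR162 guide that begins further upstream, were:
sly-miR162a-5p_stu: gGAGGCAGcggttcatcgatc
sly-miR162-5p_bra: gGAGGCAGcggttgatcgatc
sly-miR403-5p: cGTTTGTGcgtgaatctaac
sly-miR162a-p3_stu: aAGCGATCgataaacctctgcatc

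The suffixes stu, ptc, lus and bra mark the plant whose miRNA the sequence was matched to, and all 8 were read in tomato. The 3 miR162 guide forms shared 1 seed. The 22-nt form sly-miR162a_ptc carried 1 further base at the 3′ end of the 21-nt guide and the 23-nt form sly-miR162a_lus carried 2. The 24-nt sly-miR162a-p3_stu had 6 bases before the first 18 bases of the guide and therefore another seed. The 2 miR162 passenger sequences shared a seed and differed by C14G, counted from 1 at the 5′ end with the base of sly-miR162a-5p_stu first. The seeds of the miR162 and miR403 guides differed, and the guides began with different bases, U for miR162 and C for miR403.

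Written as a duplex, sly-miR162 and sly-miR162a-5p_stu faced each other over 19 positions, of which 16 were Watson-Crick pairs and 3 were mismatches, at guide positions 6, 11 and 16. Both strands left 2 unpaired bases at the 3′ end. The miR403 pair also faced over 19 positions with 16 Watson-Crick pairs, 1 G-U pair at guide position 17, and mismatches at guide positions 1 and 19. Its guide left 2 bases at the 3′ end and its 20-nt passenger left 1.

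Values below are normalized reads, which are reads multiplied by 1 factor per library. The reads behind all listed miRNA sequences numbered 850394 to 1698502 per library, and 1 read was worth 0.633 to 1.29 normalized reads. The smallest value above 0 stood for 2.25 or 2.5 reads, so that a sequence listed at 0 may still have had 1 or 2 reads. The test was limma on log2 of the normalized reads plus 1, for 419 sequences that reached 10 normalized reads in 3 or more libraries. A sequence was called where its p, adjusted over all 419 by Benjamini-Hochberg, was under 0.05. Of the 8 members 7 passed this filter. The p-values measure the spread between the 3 replicates of each treatment. The leaf label was not checked against marker transcripts, as neither assay used here measures transcript levels.

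The miR162 guide was one of the most abundant miRNAs of the leaf, ranking 10 of 765 with 2.69% of all normalized reads, and it passed the test in no comparison. Sly-miR162 gave 29374, 33007 and 26216 normalized reads in the 3 control libraries. It gave 30705, 32257 and 31186 at drought. It gave 32547, 26042 and 35233 at heat and 26227, 29537 and 23094 at combination. The ranges of the other treatments all overlapped with control, and only drought and combination did not overlap with each other. That comparison gave -0.26 in log2 (limma adjusted p = 0.352), and in it 32.5% of all sequences tested had groups that did not overlap. The difference in log2 from control was 0.09 at drought (95% interval -0.28 to 0.46), 0.08 at heat (-0.29 to 0.45) and -0.17 at combination (-0.54 to 0.20), with limma adjusted p of 0.934, 0.799 and 0.621. Changes within these intervals could not be told from the replicate spread. As whole leaves were sequenced, here and below a difference in the number of cells holding a miRNA and one in its amount per cell cannot be told apart.

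The passenger strand of miR162 fell strongly at 38 °C. Sly-miR162a-5p_stu gave 1690.3, 2555 and 1716 normalized reads at control and 1896, 1853 and 1943 at drought. It gave 220.1, 236 and 196 at heat and 419.9, 340.4 and 278 at combination. All 6 libraries at 38 °C lay below all 6 at 26 °C, and the 3 heat libraries lay below the 3 combination libraries. Groups did not overlap in 30.8% of all sequences tested at heat vs control and in 29.8% at combination vs control. The share of sequences that separate 6 libraries from 6 was not computed. The log2 change was -3.16 ± 0.22 (SE) at heat vs control (limma adjusted p = 2.47e-07), an 8.97-fold difference, and -2.51 ± 0.22 at combination vs control (adjusted p = 1.07e-05), a 5.70-fold difference. Of the sequences tested, 15% were called at heat vs control, 2.39% higher and 12.6% lower, and 5.25% had a lower log2 change than this strand. At drought the log2 difference was -0.04 (95% interval -0.51 to 0.43, adjusted p = 0.99). Combination vs heat gave 0.65 ± 0.22, which did not pass the adjusted threshold (adjusted p = 0.0896). In that comparison 20.8% of all sequences tested had groups that did not overlap.

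**Figure D1:**
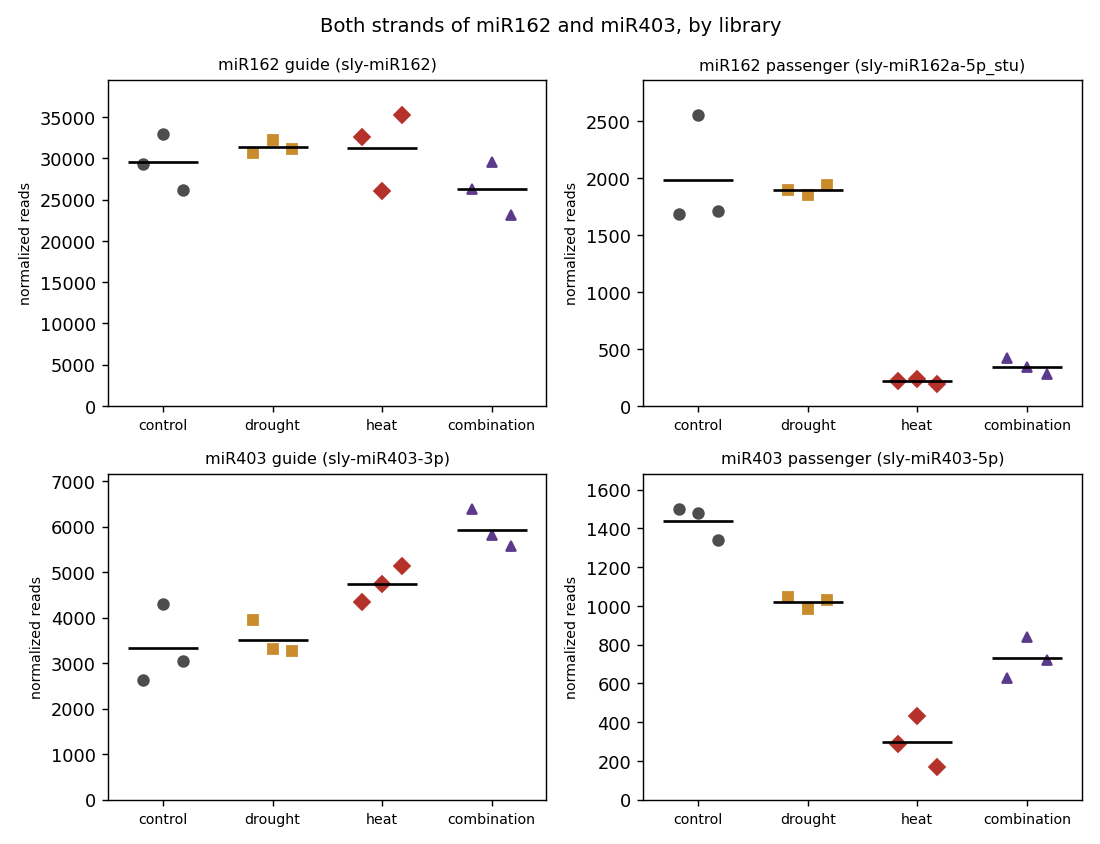
Normalized reads (linear axis from 0) of the guide and passenger strand of miR162 and miR403 in each of the 12 small RNA libraries. Points are libraries and bars are means of 3; the miR162 guide stayed between 23094 and 35233, its passenger fell to between 196 and 419.9 at 38 °C, and the miR403 strands moved in opposite directions at 38 °C.

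The 2 strands of miR403 moved in opposite directions at combination. The guide sly-miR403-3p, ranking 35 by mean with 0.397% of all normalized reads, gave 2631, 4288 and 3041 at control and 3947, 3304 and 3263 at drought. It gave 4342, 4738 and 5137 at heat and 6391, 5813 and 5571 at combination. Control and drought overlapped, every heat library lay above every control and drought library, and every combination library lay above every heat library. At heat vs drought 26.3% of all sequences had groups that did not overlap. At combination vs drought sly-miR403-3p rose by 0.76 ± 0.19 in log2 (limma adjusted p = 0.0197), a 1.69-fold difference, a call that was lost without the trend (adjusted p = 0.0749) and without drought replicate 2 or 3 or combination replicate 1 (0.70 to 0.72). In that comparison 4.53% of sequences were called higher and 7.4% lower, and 32.5% had groups that did not overlap. The mean rose 1.57-fold from 26 °C to 38 °C (log2 change 0.65 ± 0.14, adjusted p = 0.0038), in a contrast that called 19.3% of sequences, 6.44% of them higher.

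Heat vs control gave 0.54 ± 0.19 in log2 (95% interval 0.12 to 0.96) with an adjusted p of 0.0886, so heat alone did not pass although the groups did not overlap, as was the case for 30.8% of all sequences tested. Without control replicate 2, the highest control library, this difference was 0.74 with an adjusted p of 0.0106. Combination vs control passed, with 0.86 ± 0.19 (adjusted p = 0.0103) beside 3.34% of sequences called higher, 9.31% called lower and 29.8% with groups that did not overlap. When only these 2 groups were fitted the adjusted p was 0.0595. Combination vs heat gave 0.32 (95% interval -0.09 to 0.74, adjusted p = 0.371), beside 20.8% of sequences with groups that did not overlap.

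The passenger sly-miR403-5p was lowest at heat and intermediate at combination. Its normalized reads were 1501, 1478 and 1340.0 at control and 1047, 985 and 1029 at drought. They were 288, 433 and 167 at heat and 627, 841 and 719.8 at combination. The 4 treatments did not overlap at all and fell in the order control, drought, combination, heat, although the step from control to drought was not called. Drought vs control gave -0.49 in log2 (95% interval -1.11 to 0.12, limma adjusted p = 0.748), and 15% of all sequences had non-overlapping groups in that comparison. For the other pairs of treatments that share was 20.8% to 32.5%. The log2 change was -2.38 ± 0.28 at heat (adjusted p = 3.85e-05), a 5.21-fold difference. At combination it was -0.99 ± 0.28 (adjusted p = 0.0345), a call that was lost in a fit without the mean-variance trend (adjusted p = 0.0821) and without any 1 of 9 libraries (control, drought or combination replicate 1, 2 or 3, with changes of -1.10 to -0.89). Without a heat replicate it was kept.

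The strand was higher at combination than at heat, by 1.39 ± 0.28 in log2 or 2.62-fold (adjusted p = 0.0088). It was 1 of the 6.44% of sequences called in this comparison, nearly all of them (6.21%) in the higher direction, and with only these 2 groups in the fit its adjusted p was 0.139. The effect of heat differed between plants without and with water. The interaction was 1.89 ± 0.40 in log2 (adjusted p = 0.0117), with 5.01% of sequences called for an interaction, all of them higher. No other member was called for it, and the guide of the same duplex gave 0.22 (95% interval -0.37 to 0.81, adjusted p = 0.661).

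Within a library the normalization factor cancels, so the passenger was also set against its own guide. The miR162 passenger made up 6.26 ± 0.88% (SD, n = 3) of the pair in control, 5.70 ± 0.24% in drought, 0.707 ± 0.174% in heat and 1.30 ± 0.24% in combination libraries. The miR403 passenger made up far more, 30.9 ± 5.35% in control, 22.6 ± 1.53% in drought, 5.92 ± 2.63% in heat and 11.0 ± 1.89% in combination libraries. For both duplexes the shares of all 6 libraries at 38 °C were below those of all 6 at 26 °C, and the heat libraries lay below the combination libraries. The miR403 passenger held a larger share of its pair than the miR162 passenger in each of the 12 libraries.

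The log2 ratio of passenger to guide changed at 38 °C by -2.73 for miR162, from -3.98 ± 0.16 to -6.71 ± 0.57 (SD, n = 6 and 6), which is 6.63-fold. For miR403 it changed by -2.09, from -1.48 ± 0.41 to -3.57 ± 0.78, or 4.26-fold. Both differences had p = 0.00216 in a two-sided exact permutation test over the 12 libraries, the smallest value it can give, and the same after Benjamini-Hochberg adjustment over the 4 ratios tested. Within irrigated plants, heat vs control gave -3.25 for miR162 and -2.93 for miR403. Combination vs control gave -2.35 and -1.85. The combination ratio exceeded the heat ratio by 0.90 and 1.07. With 3 libraries against 3 the exact permutation test cannot go below p = 0.1, and each of these differences reached that value.

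At drought the miR162 ratio differed from control by -0.13 (exact permutation p = 0.4) with overlapping libraries. The miR403 ratio differed by -0.60, and its 3 drought libraries (-1.91, -1.75 and -1.66) lay below the 3 control libraries (-0.81, -1.54 and -1.18). This p was again 0.1, the smallest possible.

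**Figure D2:**
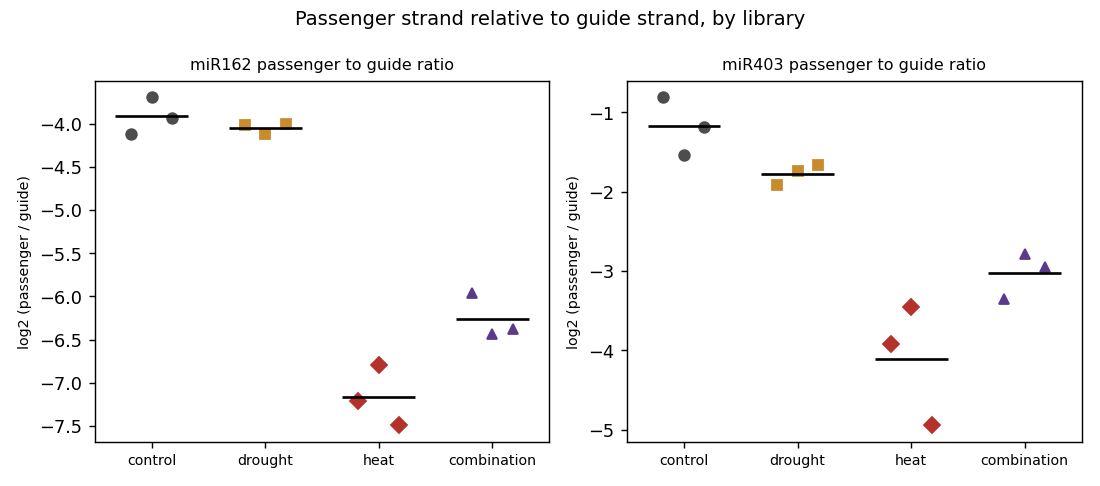
Log2 of passenger over guide normalized reads in each small RNA library, for miR162 and miR403. Points are libraries and bars are means of 3; all libraries at 38 °C (heat and combination) lie below all at 26 °C, and the heat libraries lie lowest.

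The 3′-extended forms of the miR162 guide were rare, and the 2 forms moved in opposite directions at 38 °C. The 22-nt sly-miR162a_ptc gave 146, 216 and 182 normalized reads at control and 169, 239.5 and 173 at drought. It gave 95.4, 73.0 and 131 at heat and 61.3, 102 and 87.4 at combination. The 6 libraries at 38 °C lay below the 6 at 26 °C, a separation whose share over all sequences was not computed. Groups did not overlap in 30.8% of all sequences at heat vs control and in 29.8% at combination vs control. The log2 change from 26 °C to 38 °C was -1.05 ± 0.21 (limma adjusted p = 0.00335). Against control it was -0.87 at heat (adjusted p = 0.0791) and -1.12 at combination (adjusted p = 0.0252). The combination call was lost under scaling with a trimmed mean of log ratios (-0.96, adjusted p = 0.0689), with only the 2 groups fitted (adjusted p = 0.0664), and without control replicate 2 or 3 or combination replicate 1 or 3 (-1.17 to -0.92). The heat call was gained without heat replicate 3 (-1.09, adjusted p = 0.0335).

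The 23-nt sly-miR162a_lus was listed at 0 in all drought libraries and in control replicates 1 and 3, with 6.38 normalized reads in control replicate 2. It gave 27.5, 28.3 and 23.6 at heat and 11.4, 28.5 and 14.8 at combination. It was thus present in all 6 libraries at 38 °C and above the single control value in each of them. It passed the filter only through these libraries, so its filtered tests of 38 °C against 26 °C partly restate that selection. The test called it higher at heat (adjusted p = 0.00672) and at combination (adjusted p = 0.0252), the latter lost with only the 2 groups fitted (adjusted p = 0.0948), without a filter on low values (adjusted p = 0.0582), and without control replicate 1 or 3 or combination replicate 2 or 3. The heat call was kept without the filter, with an adjusted p no higher than 0.0287 over 8 alternative settings. No fold is given because the fitted value depends on the constant added to the zeros. In counts of members, 3 of the 7 tested were called at heat vs control (1 higher, 2 lower) and 5 of 7 at combination vs control (2 higher, 3 lower), beside 15% and 12.6% of all sequences. At 38 °C vs 26 °C it was 5 of 7 beside 19.3%. These counts include the 23-nt form, which passed the filter only through its libraries at 38 °C.

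Against the 21-nt guide of the same library, the 22-nt form had a log2 ratio of -7.35 ± 0.22 at 26 °C and -8.30 ± 0.27 at 38 °C, a 1.94-fold fall (SD, n = 6 and 6, two-sided exact permutation p = 0.00216). The 23-nt form rose by 4.08 in log2 relative to the 21-nt guide with 1 added to each value (same exact permutation p). As this form was at or near 0 at 26 °C and passed the filter only through 38 °C libraries, the p gives no separate support for that difference. The size of that difference depended on the constant, since at heat vs control it was 3.74 with 1 added and 1.55 with 10 added, and at combination vs control 3.37 and 1.38. The 23-nt form made up 0.0866 ± 0.0209% of the sum of both forms at heat (SD, n = 3) and 0.0679 ± 0.0267% at combination.

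**Figure D3:**
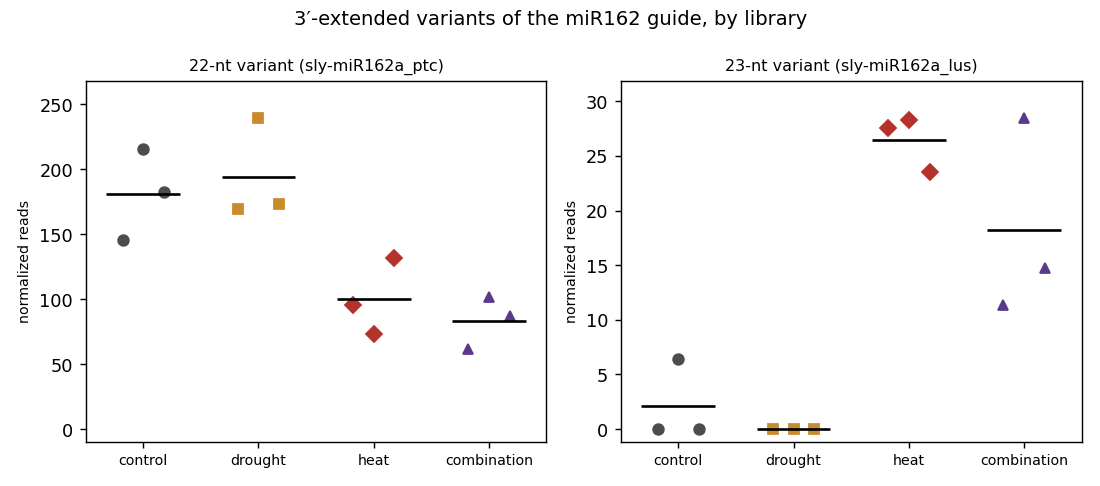
Normalized reads of the 22-nt and 23-nt forms of the miR162 guide in each small RNA library. Points are libraries and bars are means of 3; the 22-nt form lies at 61.3 to 131 at 38 °C against 146 to 239.5 at 26 °C, and the 23-nt form is at 0 in 5 of the 6 libraries at 26 °C.

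The other members were low. Sly-miR162a-p3_stu ranged from 30.4 to 86.7 normalized reads, both at combination, with overlapping ranges in all 4 treatments and no call in any comparison (heat vs control 0.11 in log2, 95% interval -0.77 to 0.98). Sly-miR162-5p_bra was listed in drought replicate 3 alone, at 2.76 normalized reads, and was not tested. At drought vs control none of the 7 tested members was called, and neither was any of the 419 sequences (0%) with limma or with voom, although 34 had an unadjusted p under 0.05. Water withheld vs irrigated, over both temperatures, called no member (1.19% of sequences called).

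Summed over members, miR162 held 2.75 ± 0.24% of all normalized reads at control (SD, n = 3), 3.17 ± 0.12% at drought, 2.85 ± 0.42% at heat and 2.49 ± 0.28% at combination. The miR403 family held 0.411 ± 0.058%, 0.430 ± 0.064%, 0.452 ± 0.011% and 0.620 ± 0.034% in the same order. The 3 combination libraries had the highest miR403 shares of all 12.

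For likeness over the 12 libraries, 248 sequences outside the 2 families with a mean of at least 20 normalized reads were compared on the log2 scale. The highest Pearson r to sly-miR403-3p were 0.904 for sly-miR9470-p5, 0.853 for sly-miR6025-p3_stu and 0.832 for PC-3p-11151_643 (Spearman rho 0.867, 0.846 and 0.818). For sly-miR162, whose own level hardly varied, the highest r was only 0.516, for sly-miR169c, followed by 0.478 for sly-miR390b-3p and 0.467 for PC-3p-34854_321. All points share their library and its normalization factor, and these values are descriptions.

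Of the other miRNAs known to act on this machinery, miR168 targets AGO1 mRNA in Arabidopsis and miR6026 targets DCL2 mRNA in tomato. Of their 9 sequences, 0 were called higher and 4 lower at heat vs control, beside 2.39% and 12.6% of all sequences tested. At combination vs control it was 0 higher and 3 lower, beside 3.34% and 9.31%. At combination vs drought it was 1 higher and 2 lower, beside 4.53% and 7.4%, and at combination vs heat 3 higher and 0 lower, beside 6.21% and 0.239%. Their median log2 change at heat vs control was -1.47, against 0.08 for the 7 members and 0.14 for all sequences. The 4 called at heat vs control changed by -3.45 ± 0.22 for sly-miR168a-3p, -3.12 ± 0.35 for ath-miR168a-3p_R+1 and -2.97 ± 0.23 for sly-miR168b-3p, which come from the arm opposite the AGO1-directed strand, and -1.47 ± 0.18 for sly-miR168a-5p, from the AGO1-directed arm. The miR6026 guide differed by 0.29 at heat vs control (limma adjusted p = 0.301).

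The degradome lists gave 1 site for each guide, in all 4 treatments. The DCL1 site lay on transcript Solyc10g005130.3.1 of chromosome 10, annotated as a ribonuclease III, and was listed with identical values for the 3 forms of the miR162 guide, so it was counted once. The AGO2 site lay on Solyc02g069260.3.1 of chromosome 2 and was listed for sly-miR403-3p. No site was listed for a passenger strand or for sly-miR162a-p3_stu. Reads were recovered from the normalized values, and the reads at all listed sites numbered 1407 to 7498 per library. They were then brought to 1 depth with a trimmed mean of log ratios between libraries. The relative depths so found were 1.46 to 1.67 at control, 1.52 to 1.96 at drought and 0.45 to 0.73 at combination, and 0.44, 0.51 and 1.29 at heat, so that heat replicate 3 stood apart from the other heat libraries. A site with more reads can reflect more cutting or more of the transcript, and these libraries do not tell these apart.

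The AGO2 site was among the strongest cleavage signals of the leaf, ranking from 1 to 6 among all listed sites and first in 5 of the 12 libraries. It had 222, 640 and 261 reads at control and 344, 315 and 639 at drought. It had 487, 520 and 301 at heat and 179, 173 and 187 at combination. In unscaled reads the combination libraries were the lowest and control, drought and heat overlapped. After scaling the values were 152, 384 and 177 at control, 176, 207 and 376 at drought, 1100.1, 1023 and 232 at heat, and 306, 238 and 418 at combination. Heat replicates 1 and 2 then stood far above all other libraries while heat replicate 3 lay within the control range.

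As a share of all reads at listed sites, AGO2 took 6.19 ± 3.09% at control (SD, n = 3), 6.10 ± 2.17% at drought, 15.9 ± 7.31% at heat and 10.3 ± 2.89% at combination. The log2 change of scaled reads at heat vs control was 1.55 ± 0.47 (SE, limma adjusted p = 0.0259), with 12.5% of the 200 sites tested called in this comparison, 4% higher and 8.5% lower. This call did not hold up. With the values as deposited the change was 0.50 (adjusted p = 0.378), with only the 2 groups fitted the adjusted p was 0.238, and it was lost without any 1 of 8 libraries (control or drought replicate 1, 2 or 3, or heat replicate 1 or 2). Without heat replicate 3 the change was 2.28 (adjusted p = 4.14e-05).

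At 38 °C vs 26 °C the AGO2 site gave 0.96 (adjusted p = 0.0325, beside 24.5% of sites called), but -0.28 (adjusted p = 0.42) with the values as deposited, so its direction depended on the scaling. Its call was also lost with voom (adjusted p = 0.0525) and without any 1 library other than heat replicate 3 or combination replicate 2. At combination vs control the change was 0.51 (95% interval -0.44 to 1.47, adjusted p = 0.481) after scaling and -0.74 as deposited, in a comparison with 6.5% of sites called higher. At heat vs drought it was 1.41 (adjusted p = 0.0387, 7.5% of sites called higher), and 0.19 (adjusted p = 0.753) as deposited. With the replicate number as a block the adjusted p was 0.054, with only these 2 groups fitted it was 0.345, and the call was also lost without any 1 of 9 libraries (other than control replicate 1, heat replicate 3 and combination replicate 3). The AGO2 site was not called at combination vs control, where sly-miR403-3p was.

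The DCL1 site was much weaker. It had 59, 16 and 21 reads at control and 31, 53 and 66 at drought. It had 7, 13 and 17 at heat and 11, 27 and 4 at combination. After scaling the values were 40.5, 9.60 and 14.3 at control, 15.9, 34.9 and 38.8 at drought, 15.8, 25.6 and 13.1 at heat, and 18.8, 37.2 and 8.94 at combination, and all 4 treatments overlapped. The log2 change vs control was 0.61 at drought (95% interval -0.87 to 2.10), -0.03 at heat (-1.52 to 1.46) and 0.05 at combination (-1.43 to 1.54), with limma adjusted p of 0.861, 1 and 0.987. At this depth a 2-fold change in either direction at heat or combination, or a 2-fold rise at drought, could not be told from none. With the values as deposited the site was lower at 38 °C, with -1.47 in log2 (adjusted p = 0.0332). In that setting 66 of the 200 sites tested were called in this contrast. After scaling the same contrast gave -0.30 for the DCL1 site (adjusted p = 0.695).

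**Figure D4:**
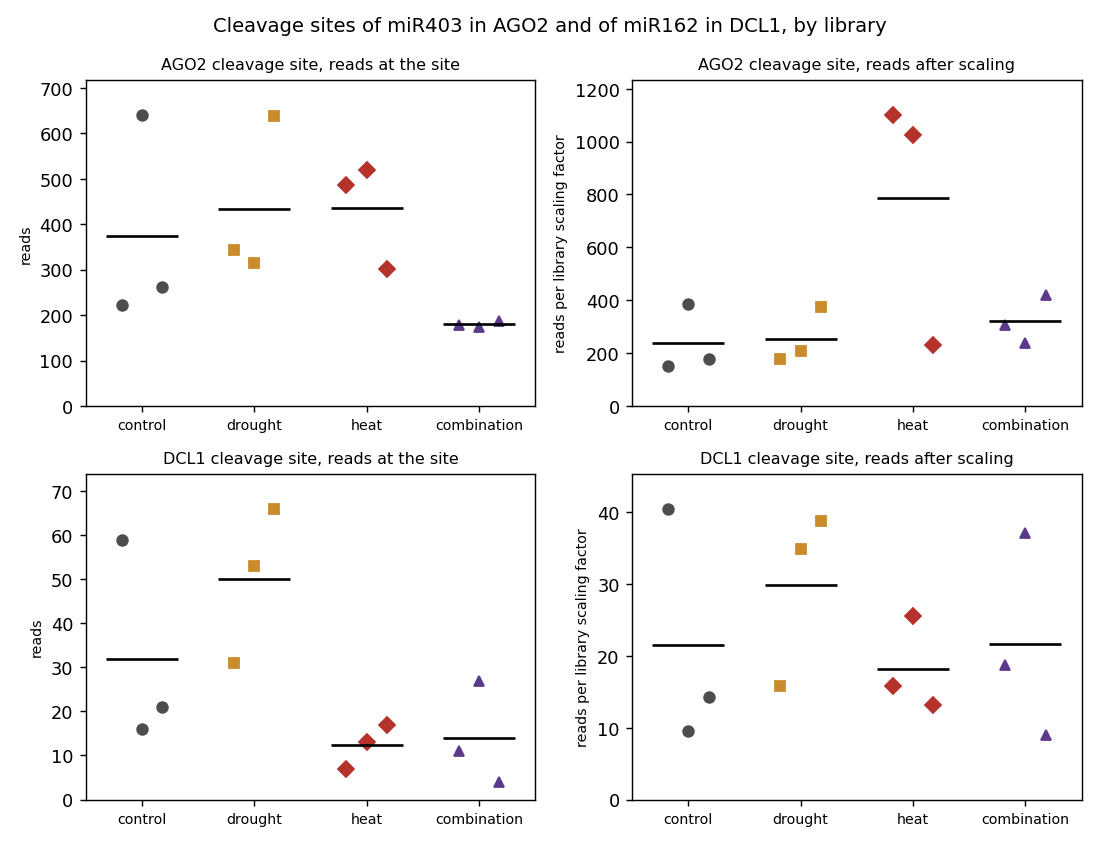
Reads at the AGO2 and DCL1 cleavage sites in each of the 12 degradome libraries, before (left) and after (right) scaling, on linear axes from 0. Points are libraries and bars are means of 3; after scaling, 2 heat libraries of the AGO2 site stand at 1100.1 and 1023 while the third is at 232.

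The 2 other sites that name an Argonaute, both listed for miR168, were those of AGO1 and AGO1B, and 0 of 2 were called in any comparison by limma. The AGO1 site gave 1.54 ± 0.54 at heat vs control (unadjusted p = 0.00782, adjusted p = 0.055) and the AGO1B site -1.01 ± 0.91 (unadjusted p = 0.276, adjusted p = 0.498).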

How the data were processed

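The small RNA values are a signal deposited by the authors: reads per miRNA sequence, after removal of reads matching other RNA classes and alignment to plant miRNAs of miRBase, multiplied by 1 factor per library. The degradome signal, deposited per treatment, holds reads at sites that the authors found with CleaveLand, multiplied likewise. The aligner settings and the formula of the factor are not given in the sources used here, and positions of hairpins and sites were not analysed here. Circular RNA values were not used.

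The 869 small RNA lines held 765 distinct sequences. Degradome reads were recovered with the largest step per library that made most values whole (91.1% to 94.9% within 0.01 of a read) instead of the smallest step that had been planned, which is a fraction of a split read. Sites with at least 10 reads in all were tested (200 of 574). Fits over the 12 libraries used R 4.3.3 and limma 3.58.1, a mean for each treatment, a mean-variance trend and a constant of 1 before log2; fold changes are on that scale and understate low sequences. Permutation tests, tables and figures used Python 3.11.15, numpy 2.4.6, pandas 2.3.3, scipy 1.17.1 and matplotlib 3.10.9. All members are named, of the miR168 and miR6026 list up to 4 called by size, and for likeness the 3 highest r. Alternatives were other scalings, filters, constants, groups fitted, the replicate number as a block, voom, no trend, and each library left out; voom on degradome reads was added after the data were seen. Tests were tried on simulated data. The members and lists were chosen with earlier results of these data known.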

Additional observations from a re-analysis of the deposited data

Results flagged for a closer look

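The effect of heat differed between plants without and with water, by the interaction term of limma on 12 small RNA libraries, for 1 member and 4 sequences of miR168. For sly-miR403-5p the log2 effect of heat with water withheld exceeded that with irrigation by 1.89 ± 0.40 (adjusted p = 0.0117). The same difference was 1.17 ± 0.25 for sly-miR168a-5p (adjusted p = 0.0132), 1.57 ± 0.30 for sly-miR168a-3p (adjusted p = 0.00728), 1.96 ± 0.33 for sly-miR168b-3p (adjusted p = 0.00299) and 3.01 ± 0.49 for ath-miR168a-3p_R+1 (adjusted p = 0.00261). For sly-miR403-5p the difference stayed between 1.53 and 2.21 when each of the 12 libraries was left out in turn, with adjusted p from 0.00113 to 0.0366. Under 7 other settings its adjusted p ranged from 0.00362 to 0.0496. Of the 419 sequences tested 21 were called for the interaction, all of them higher, so the positive sign was not particular to these families.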

How the results depend on the processing

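Of 1653 values recomputed under alternatives, 1577 kept their side of the threshold with no reversal of a called result, or moved by less than the replicate spread. A change of direction was not counted as a reversal where neither fit was called. The AGO2 site at combination vs control was such a case, positive after scaling and -0.74 with values as deposited. For sly-miR403-3p, combination vs control stayed at 0.86 with only the 2 groups fitted but was no longer called (limma adjusted p = 0.0595), and heat vs control ranged from 0.39 to 0.74 without 1 library, called without control replicate 2. For sly-miR403-5p, combination vs control was -0.99 and not called without the trend, and -1.10 to -0.89 without 1 library. The AGO2 site at heat vs control was 0.50 with values as deposited and 1.55 with only the 2 groups fitted, neither called, and 1.13 to 2.28 without 1 library. With values as deposited its change reversed to -1.05 at combination vs drought (adjusted p = 0.0283, beside 45 of 200 sites called). At 38 °C vs 26 °C it reversed to -0.28. The 23-nt to 21-nt ratio was 1.55 at heat and 1.38 at combination vs control with 10 added. Causes were not tested. A trimmed-mean scaling of small RNA moved the median of all sequences by 0.14 at combination vs control, 0.15 at combination vs drought and 0.11 at 38 °C vs 26 °C and for the interaction. Replicate numbers did not pair the libraries throughout (correlations of deviations from -0.38 to 0.38 over 18 small RNA pairs, 5 over 0.1, and from -0.19 to 0.25 over 18 degradome pairs, 1 over 0.1). Small RNA replicate 1 of control, drought and combination correlated at 0.28, 0.35 and 0.38, so a block shared by these treatments was not excluded. The replicate block changed 1 call, AGO2 at heat vs drought (1.41, adjusted p = 0.054). Depth limits the DCL1 site, with 4 to 66 reads per library, and sly-miR162a_lus, listed at 0 in 5 libraries.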
